A study of Mus musculus with 14 samples.

Results

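The genes described here are 37 genes of DNA replication and cell division, read across 14 mouse skin libraries in 6 groups. They are the rows whose symbol is on a fixed list of 37 names, out of 56953 genes in the deposited count table. Of these, 14 act in S phase, when DNA is copied, and 23 act in mitosis, when the copied chromosomes are separated. All 37 symbols were found, and all 37 passed the filter on low counts, as did 16027 genes in all.

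Epidermis is renewed by division of basal keratinocytes, and most differentiated skin cells carry little RNA of these genes, so their level in whole skin rises with the share of cycling cells. S-phase genes are switched on by E2F transcription factors at the end of G1, and mitotic genes later, by the MuvB, B-MYB and FOXM1 complexes that bind the CHR element of their promoters. NEDD8 is a small protein that is joined to cullins and thereby turns on cullin-RING ubiquitin ligases, whose known substrates include the licensing factor CDT1 and cyclin E. Imiquimod is an agonist of Toll-like receptor 7, and repeated application to mouse skin gives an inflammation with thickened epidermis that is used as a model of psoriasis.

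The knockout groups carried floxed Nedd8 on both alleles and the K14-CreERT transgene (NEDD8fl/fl, K14-CreERT pos), with 2 libraries after imiquimod and 3 after DMSO. The Cre-negative groups carried the same floxed alleles without the transgene (NEDD8fl/fl, K14-CreERT neg), again with 2 libraries after imiquimod and 3 after DMSO. The wild type C57BL/6J groups had 2 libraries after imiquimod and 2 after DMSO. Imiquimod was given each day as a 5% cream, with the mice killed on day 7, and knockout mice were induced on 5 days before day 0. For the other genotypes the labels give no induction, and they give no age, no group that received the cream base alone, and no choice between back and ear for a given library, so these features may move with the groups. The keratin 14 promoter acts in keratinocytes of the epidermis and hair follicle, and cells without it, such as fibroblasts, muscle, vessels and immune cells, keep Nedd8. The series' design text speaks of a topical NEDD8 inhibitor on wild type back skin, and the extraction text speaks of cells, neither of which the labels of these libraries name. The labels do not say that replicates came from separate animals, so p-values measure the spread between these samples, which may be technical.

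Libraries held 5552954 to 34362477 counts. All 12 epidermal keratinocyte markers had counts in every library. Nedd8 itself had a log2 fold change of -0.47 ± 0.40 (SE) in DMSO-treated knockout skin relative to Cre-negative skin (edgeR adjusted p = 0.4), but its 3′ tag may lie outside the deleted part and other cells keep the gene, so it does not check the genotype labels. Nedd8 levels in CPM (counts scaled to library size with edgeR's TMM factors) were 374.7, 157.5 and 146.6 in knockout DMSO replicates 1 to 3. In Cre-negative DMSO skin they were 359.5, 289.7 and 290.8, so knockout replicate 1 lay above all of these and replicates 2 and 3 below. By Xist and 4 Y-linked genes, both knockout imiquimod and both Cre-negative imiquimod libraries were male, the 3 knockout DMSO and all 4 wild type libraries were female, and Cre-negative DMSO libraries were 2 male and 1 female. An 18S rRNA sequence, Rn18s-rs5, took 3.84% to 19.1% of the counts, with the highest shares in Cre-negative imiquimod replicate 2 and knockout DMSO replicate 1. Wild type DMSO replicate 2 stood apart with 7029 CPM summed over 17 hair matrix and shaft markers, against 120.9 CPM in replicate 1 of that group.

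Promoter sequence was read for both classes without any use of the counts, as a description. The window from 250 bases before to 50 bases after the annotated start was read for 31 of the 37 members (12 S-phase, 19 mitotic) from RefSeq on GRCm38.p6, and letters were matched on both strands. The CHR letters TTTGAA were found for 14 of 19 mitotic members (73.7%), 1 of 12 S-phase members (8.33%), and 20.2% of the 27025 genes with a window. A CCAAT box (CCAAT) was found for 89.5% of the mitotic members, 75% of the S-phase members and 41.1% of all genes. Any of the E2F letters TTTCCCGC, TTTGGCGC, TTTCGCGC or TTTGCCGC was found for 1 of 19 mitotic members (5.26%), 4 of 12 S-phase members (33.3%), and 2.6% of all genes. The last 200 bases before the start are shown for 3 mitotic genes and 3 S-phase genes that recur in the results below, 5′ to 3′ on the strand of the gene, with matches on either strand in capitals. Cdc20 and Ube2c have a CHR beside CCAAT boxes, and Cdk1 has CHR, CCAAT and E2F letters together. Mcm5 and Mcm6 have overlapping E2F letters with CCAAT boxes, and Rrm2 has a CCAAT box alone. In Ube2c the match CCAATTGG holds a CCAAT box on each strand.
Cdc20: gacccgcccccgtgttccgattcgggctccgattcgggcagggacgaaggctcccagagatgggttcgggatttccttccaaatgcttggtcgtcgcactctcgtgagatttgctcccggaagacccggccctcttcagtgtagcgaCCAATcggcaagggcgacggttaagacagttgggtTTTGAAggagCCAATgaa
Ube2c: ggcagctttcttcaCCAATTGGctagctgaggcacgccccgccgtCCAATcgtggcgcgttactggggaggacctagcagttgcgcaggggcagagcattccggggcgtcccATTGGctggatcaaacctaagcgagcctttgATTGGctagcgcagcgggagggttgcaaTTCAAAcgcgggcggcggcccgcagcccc
Cdk1: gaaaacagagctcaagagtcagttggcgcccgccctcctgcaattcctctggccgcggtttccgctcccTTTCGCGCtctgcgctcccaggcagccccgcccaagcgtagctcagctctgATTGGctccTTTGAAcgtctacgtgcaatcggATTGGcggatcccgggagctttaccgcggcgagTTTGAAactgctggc
Mcm5: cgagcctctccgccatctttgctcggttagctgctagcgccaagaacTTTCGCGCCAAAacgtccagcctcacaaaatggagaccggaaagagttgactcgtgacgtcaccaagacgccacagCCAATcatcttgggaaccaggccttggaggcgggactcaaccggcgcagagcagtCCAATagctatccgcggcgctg
Mcm6: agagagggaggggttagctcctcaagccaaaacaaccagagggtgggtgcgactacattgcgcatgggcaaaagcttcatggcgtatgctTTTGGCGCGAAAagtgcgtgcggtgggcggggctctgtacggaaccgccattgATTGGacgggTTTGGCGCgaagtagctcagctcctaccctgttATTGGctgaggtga
Rrm2: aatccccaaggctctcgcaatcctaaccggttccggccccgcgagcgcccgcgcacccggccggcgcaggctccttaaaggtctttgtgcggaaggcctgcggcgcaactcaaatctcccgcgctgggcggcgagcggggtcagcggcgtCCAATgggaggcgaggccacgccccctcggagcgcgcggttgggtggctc
On GRCm38.p6 these stretches lie at chr4:118437344-118437543 on the minus strand for Cdc20, chr2:164769729-164769928 on the plus strand for Ube2c and chr10:69352913-69353112 on the minus strand for Cdk1. For the S-phase genes they lie at chr8:75109309-75109508 on the plus strand for Mcm5, chr1:128359706-128359905 on the minus strand for Mcm6 and chr12:24708054-24708253 on the plus strand for Rrm2. A match of letters is a description of the window and not a measured binding site.

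By the mean of log2 CPM, 25 of the 37 members were highest in knockout DMSO skin and 26 were lowest in Cre-negative DMSO skin. The other maxima were in wild type imiquimod (6), Cre-negative imiquimod (5) and wild type DMSO skin (1), and knockout imiquimod skin held 6 of the other minima. Each gene's log2 CPM was centred on its mean over libraries, and the median over members was taken in each library. For the mitotic members it was -0.58 and 0.64 in knockout imiquimod skin, 0.51, 0.88 and 1.40 in knockout DMSO skin, 0.29 and 0.22 in Cre-negative imiquimod skin, and -1.26, -0.76 and -0.54 in Cre-negative DMSO skin. It was 0.04 and 0.69 in wild type imiquimod skin and -0.94 and 0.18 in wild type DMSO skin. For the S-phase members it was -0.55 and -0.07 in knockout imiquimod skin, 0.29, 0.41 and 0.88 in knockout DMSO skin, 0.59 and 0.28 in Cre-negative imiquimod skin, and -0.77, -0.47 and -0.27 in Cre-negative DMSO skin. It was -0.05 and 0.51 in wild type imiquimod skin and -0.83 and 0.05 in wild type DMSO skin. Knockout DMSO and Cre-negative DMSO libraries did not overlap in either median. Between replicates the mitotic median had an SD of 0.86 in knockout imiquimod and 0.79 in wild type DMSO skin. The SD was 0.46 in wild type imiquimod, 0.45 in knockout DMSO, 0.37 in Cre-negative DMSO and 0.05 in Cre-negative imiquimod skin. For the S-phase median it ranged from 0.22 in Cre-negative imiquimod to 0.62 in wild type DMSO skin. The median spread between replicates within a group was 0.61 (SD, log2) for mitotic members, 0.45 for S-phase members and 0.51 for all genes tested.

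**Figure D1:**
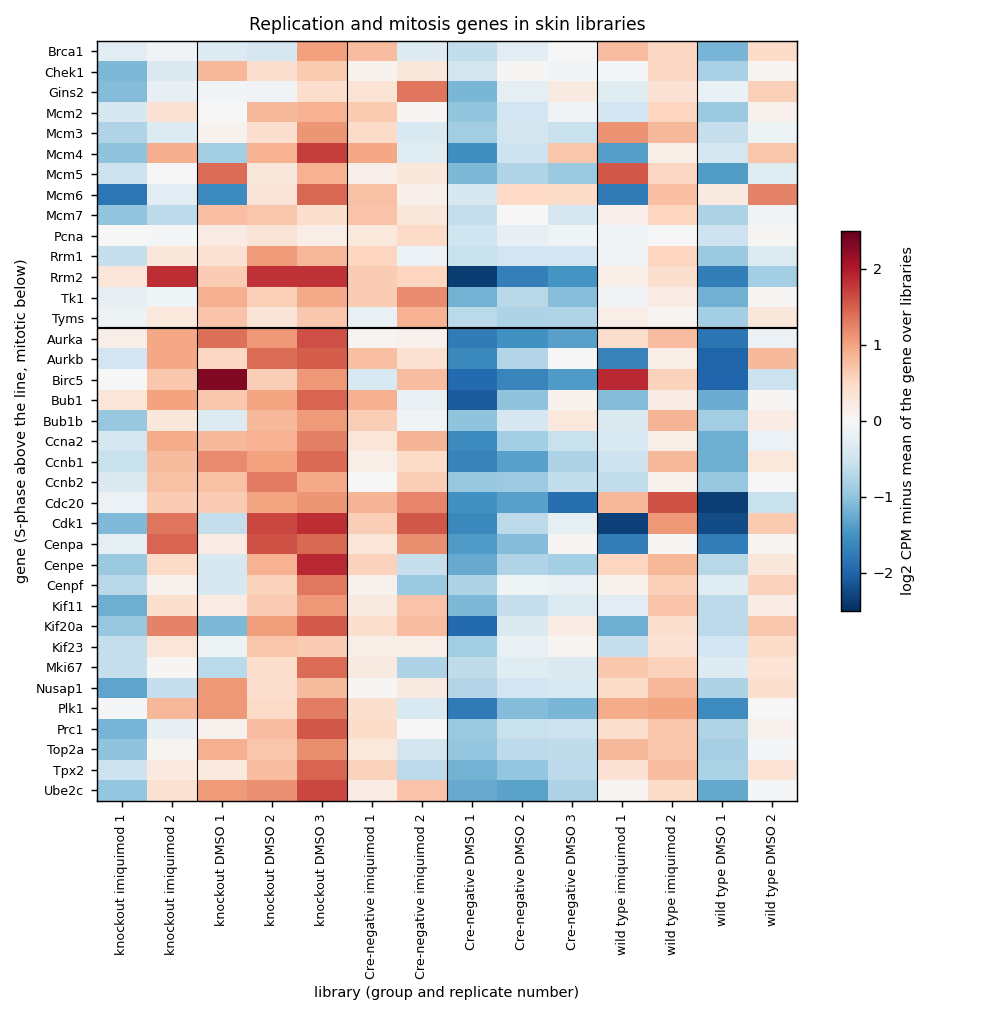
Log2 CPM of each of the 37 genes minus its mean over the 14 libraries (colour), with libraries in columns by group and S-phase genes above the horizontal line. The 3 knockout DMSO columns are mostly red and the 3 Cre-negative DMSO columns mostly blue, and the replicates of the groups with 2 libraries differ from each other.

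Deletion of Nedd8 in keratinocytes was set against floxed skin without Cre, both with DMSO. In knockout skin 23 of the 37 members rose and 0 fell. They were 7 of 14 S-phase and 16 of 23 mitotic genes, where 14% of all genes tested rose and 15.7% fell (edgeR's quasi-likelihood test, adjusted p under 0.05). The largest changes were those of Rrm2, Birc5, Aurka, Cdc20, Ccnb1, Ube2c and Plk1, with log2 fold changes of 2.30 to 3.35. All 37 fold changes were positive, and libraries of 27 members were higher without overlap, as were 21.8% of all genes. In bulk skin a larger share of cycling cells and more of these RNAs per cell cannot be told apart.

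Among the enzymes that make deoxynucleotides, Rrm2 changed most. Rrm2 (ENSMUSG00000020649.12, GRCm39 chr12:24758240-24764145) is the small, cell-cycle-controlled subunit of ribonucleotide reductase. It had 45.3, 102 and 102 CPM in the knockout DMSO libraries, against 5.48, 8.81 and 10.3 CPM in the Cre-negative DMSO libraries. The lowest knockout library lay above the highest Cre-negative one, and the log2 fold change was 3.35 ± 0.46 (SE; edgeR adjusted p = 0.00019). Rrm1, the large subunit of the same enzyme, had 53.2, 85.4 and 72.4 CPM in knockout and 27.6, 29.2 and 29.2 CPM in Cre-negative skin, a log2 fold change of 1.30 ± 0.32 (SE; edgeR adjusted p = 0.0084). Tk1, the thymidine kinase of cycling cells, had 13.2, 10.9 and 13.9 CPM in knockout and 3.08, 4.38 and 3.35 CPM in Cre-negative skin, a log2 fold change of 1.81 ± 0.34 (SE; edgeR adjusted p = 0.0018). The groups did not overlap for either gene. Tyms, thymidylate synthase, rose as well, with 19.3 ± 2.77 CPM in knockout and 7.69 ± 0.268 CPM in Cre-negative skin (SD, n = 3 each) and a log2 fold change of 1.32 ± 0.34 (SE; edgeR adjusted p = 0.011).

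Of the 6 subunits of the MCM helicase, which unwinds DNA at the fork, 3 passed the test, and all 6 fold changes were positive. Mcm5 (GRCm39 chr8:75836197-75855067) had 117, 53.9 and 81.1 CPM in knockout and 20.2, 26.2 and 23.1 CPM in Cre-negative skin, with no overlap and a log2 fold change of 1.86 ± 0.38 (SE; edgeR adjusted p = 0.0028). Mcm3 rose by 1.22 ± 0.32 (SE; edgeR adjusted p = 0.012), and Mcm7 by 0.96 ± 0.27 (SE; edgeR adjusted p = 0.019), both on the log2 scale. Mcm2 had a log2 fold change of 1.12 ± 0.41 (SE; edgeR adjusted p = 0.057) and Mcm4 one of 1.13 ± 0.72 (SE; edgeR adjusted p = 0.26), which did not pass. Mcm6 had 5.6, 21.4 and 46.8 CPM in knockout and 13, 24.1 and 24 CPM in Cre-negative skin, so that the knockout libraries lay on both sides of the Cre-negative ones. Its log2 fold change was 0.30 ± 0.69 (SE; edgeR adjusted p = 0.78). The remaining S-phase members did not pass either: Pcna, the sliding clamp of the polymerases, had 0.49 ± 0.23, Gins2, part of the helicase complex, 0.40 ± 0.41, Chek1, the replication checkpoint kinase, 0.79 ± 0.34, and Brca1, a DNA repair gene, 0.63 ± 0.51 (log2 fold change ± SE).

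Of the mitotic kinases and their partners, Aurka, the spindle pole kinase, had 37.4, 30.3 and 44 CPM in knockout and 4.14, 4.92 and 5.46 CPM in Cre-negative skin. The lowest knockout value was above the highest Cre-negative value, and the log2 fold change was 2.94 ± 0.40 (SE; edgeR adjusted p = 0.00019). Plk1, a kinase that acts from entry into mitosis to cell separation, had 84.8, 55.4 and 96.3 CPM in knockout and 11.6, 18.6 and 18 CPM in Cre-negative skin, a log2 fold change of 2.30 ± 0.42 (SE; edgeR adjusted p = 0.0014). The mitotic cyclins all rose, with log2 fold changes of 1.96 ± 0.42 for Ccna2, 2.46 ± 0.49 for Ccnb1 and 1.89 ± 0.40 for Ccnb2 (SE; edgeR adjusted p = 0.0037, 0.0024 and 0.0036). Cdk1, the kinase that these cyclins activate, had 17.6, 84.6 and 96.4 CPM in knockout and 8.55, 16.9 and 22.7 CPM in Cre-negative skin. Its replicate 1 in knockout skin lay within the Cre-negative range, and with that spread the log2 fold change of 2.06 ± 0.92 (SE; edgeR adjusted p = 0.11) did not pass. Bub1, a kinase of the spindle checkpoint, rose by 1.97 ± 0.61 on the log2 scale (SE; edgeR adjusted p = 0.026). Its relative Bub1b (0.99 ± 0.52) and Aurkb (1.95 ± 0.71), the kinase of the chromosomal passenger complex, did not pass.

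Cdc20 and Ube2c act in the exit from mitosis, and Birc5 in chromosome alignment and cell separation. Cdc20 (ENSMUSG00000006398.16, GRCm39 chr4:118290098-118294549), the activator of the anaphase-promoting complex, had 34.6, 44 and 48.2 CPM in knockout and 7.66, 8.54 and 5.9 CPM in Cre-negative skin, a log2 fold change of 2.52 ± 0.42 (SE; edgeR adjusted p = 0.00083). Ube2c (ENSMUSG00000001403.14, GRCm39 chr2:164611818-164620742), the ubiquitin-conjugating enzyme of that complex, had 75.1, 78.7 and 114 CPM in knockout and 14.8, 14 and 20.8 CPM in Cre-negative skin, a log2 fold change of 2.44 ± 0.41 (SE; edgeR adjusted p = 8e-04). Birc5, which encodes survivin of the chromosomal passenger complex, had 625, 192 and 266 CPM in knockout and 32.8, 39.9 and 46.9 CPM in Cre-negative skin, a log2 fold change of 3.18 ± 0.56 (SE; edgeR adjusted p = 0.0011). None of the 3 genes overlapped between the groups, and replicate 1 gave the highest of the knockout values for Birc5. Both Cdc20 and Ube2c carry the CHR and CCAAT letters printed above. Of the windows of Aurka and Birc5, that of Aurka holds a CHR 33 bases after the start and that of Birc5 holds none.

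Of the chromosome and spindle genes, Top2a, the topoisomerase that untangles sister DNA, had 303, 266 and 367 CPM in knockout and 83.1, 104 and 105 CPM in Cre-negative skin, a log2 fold change of 1.68 ± 0.34 (SE; edgeR adjusted p = 0.0026). Cenpa, the histone of the centromere, and Cenpe, a kinetochore motor, rose by 1.92 ± 0.64 and 2.02 ± 0.54 on the log2 scale (SE; edgeR adjusted p = 0.037 and 0.013). The spindle genes Tpx2 (1.86 ± 0.43), Prc1 (1.61 ± 0.39), Kif11 (1.36 ± 0.45) and Nusap1 (1.32 ± 0.33) rose (edgeR adjusted p = 0.0062, 0.0079, 0.035 and 0.0094). Mki67, whose protein coats mitotic chromosomes and is the usual stain for cycling cells, had 19.6, 42.4 and 82.9 CPM in knockout and 20.1, 25.4 and 24.4 CPM in Cre-negative skin. Its knockout replicate 1 lay just below the Cre-negative range and its replicate 3 far above it, so the log2 fold change of 1.06 ± 0.43 (SE; edgeR adjusted p = 0.08) did not pass. Cenpf (1.01 ± 0.44), a kinetochore protein, and the motors of cell separation Kif20a (1.41 ± 0.74) and Kif23 (0.74 ± 0.39) did not pass either.

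**Figure D2:**
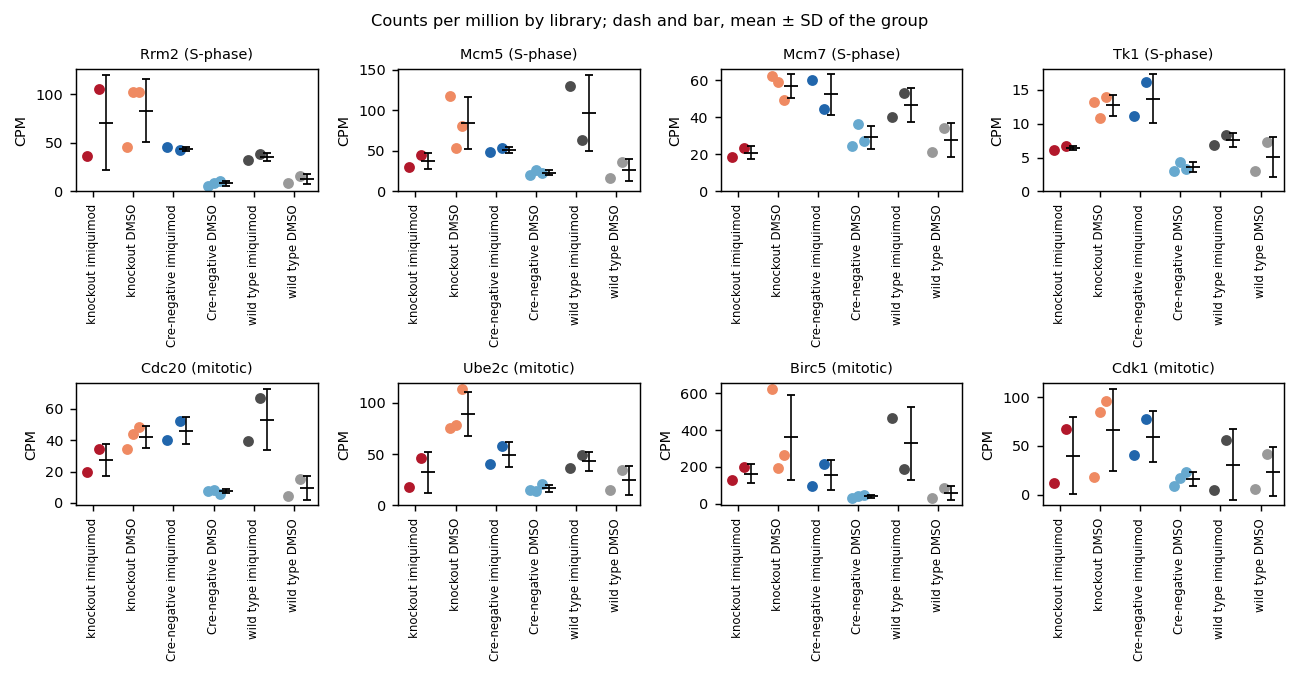
CPM of 4 S-phase genes (top row) and 4 mitotic genes (bottom row) in each library (points) by group, with the group mean and SD (dash and bar, n = 2 or 3). For Rrm2, Tk1, Cdc20 and Ube2c every knockout DMSO point lies above every Cre-negative DMSO point, and for Cdk1 the points of most groups are spread over a wide range.

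Of the 23 calls, 17 remained when any 1 library of these groups was left out. Mcm3, Mcm7, Bub1, Cenpa, Cenpe and Kif11 were lost in at least 1 such fit. Here and below, a library was left out only for comparisons that use its group. Sex was not balanced: knockout libraries were all female and only Cre-negative replicate 3 was. Cre-negative DMSO was the only group with both sexes, so a sex term rests on its replicate 3 against its replicates 1 and 2. A fit with that term in effect sets the knockout libraries against Cre-negative replicate 3, and cannot tell a sex effect from the spread between replicates. With sex as a term 3 calls remained, those of Rrm2, Aurka and Cdc20, and the medians were 0.89 for S-phase and 1.55 for mitotic members, against 1.12 and 1.92 without it. Markers of other cells moved with the genotype. Of 11 neutrophil markers tested 7 rose, and the list of 12 summed to 17190 to 63390 CPM in knockout and 77.3 to 709 CPM in Cre-negative skin. S100a8 and S100a9, which inflamed keratinocytes also express, gave 99% to 99.7% of that sum in knockout and 78.4% to 96.1% in Cre-negative skin. The other 10 summed to 131.1 to 214.5 CPM in knockout and 14.7 to 27.6 CPM in Cre-negative skin. Elane was at 0 in every knockout library, and Ly6g in every Cre-negative one. Of 12 skeletal muscle markers 10 fell, and they summed to 2123 to 3849 CPM in knockout and 9689 to 26010 CPM in Cre-negative skin, with none at 0. Of 9 T cell markers tested 5 fell. The T cell list of 12 summed to 37.75 to 47.89 CPM in knockout and 34.42 to 45.45 CPM in Cre-negative skin, with overlap. Of 10 fibroblast markers 3 fell, and of 12 keratinocyte markers 4 rose and 4 fell. The part of these markers in the result was not tested.

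Genes of the same processes outside the list of members moved the same way. Of 55 other replication genes 19 rose and 0 fell, with a median log2 fold change of 0.90, and of 65 other mitosis genes 34 rose and 0 fell, with a median of 1.53, beside -0.06 for all genes. Mcm10, which loads the polymerases, and Dbf4, the activator of the CDC7 kinase, had log2 fold changes of 2.43 ± 0.40 and 2.14 ± 0.32. Lig1, which joins Okazaki fragments, and Pold2, a polymerase delta subunit, had 1.62 ± 0.33 and 1.30 ± 0.25 (SE; edgeR adjusted p = 0.00074, 0.00038, 0.0026 and 0.0022). Among the mitosis genes, Kif14 (2.79 ± 0.39), Tacc3 (2.55 ± 0.35), Cenpw (2.26 ± 0.32) and Cdca8 (2.17 ± 0.34) had the smallest p-values. Of 39 cell cycle regulators 7 rose and 5 fell. Ccne1, which encodes cyclin E1 and whose protein is a known substrate of a cullin-RING ligase, had 9.43, 19.1 and 17.5 CPM in knockout and 1.84, 2.02 and 1.82 CPM in Cre-negative skin, a log2 fold change of 3.02 ± 0.39 (SE; edgeR adjusted p = 0.00013). Mybl2, which encodes B-MYB, rose by 3.01 ± 0.59, the E2F repressor E2f7 by 3.78 ± 0.77 and Foxm1 by 1.66 ± 0.56 on the log2 scale (SE; edgeR adjusted p = 0.0022, 0.0028 and 0.038). Ccnd2, cyclin D2, had -1.65 ± 0.33 (SE; edgeR adjusted p = 0.0024). E2f1 (-0.12 ± 0.39), Cdt1 (0.50 ± 0.31), Ccnd1 (0.52 ± 0.37) and Cdkn1a (-0.04 ± 0.29), which encodes the cell cycle inhibitor p21, did not pass. The lists of other genes were drawn up with earlier results of these data known, so they are no independent support.

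Knockout DMSO skin was also set against wild type DMSO skin, a pair in which every library was female. Here 13 of 37 members rose and 0 fell, 5 S-phase and 8 mitotic, where 11.3% of all genes rose and 14.4% fell (edgeR, adjusted p under 0.05). They were Mcm5, Mcm7, Rrm1, Rrm2 and Tk1, and Top2a, Aurka, Plk1, Ccna2, Ccnb2, Cdc20, Birc5 and Ube2c. The median log2 fold change was 0.94 for S-phase and 1.31 for mitotic members, beside -0.06 for all genes. Rrm2 had 45.3, 102 and 102 CPM in knockout and 8.73 and 16.1 CPM in wild type skin, without overlap, and its log2 fold change was 2.74 ± 0.52 (SE; edgeR adjusted p = 0.0024). Aurka had 37.4, 30.3 and 44 CPM in knockout and 3.91 and 12.9 CPM in wild type skin, also without overlap, with a log2 fold change of 2.13 ± 0.45 (SE; edgeR adjusted p = 0.0043). Libraries of 21 members were higher in knockout skin without overlap, as were 24.2% of all genes. Rrm2 and Aurka kept their call whichever library was left out. The count was 2 without wild type DMSO replicate 1 and 8 without knockout DMSO replicate 3. Wild type DMSO replicate 2, the library high in hair markers, was the higher of its pair for all 37 members, and all 16 hair markers tested were lower in knockout skin, with sums of 82.3 to 130 CPM in knockout and 120.9 and 7029 CPM in wild type skin. Of the neutrophil markers 8 of 11 rose, and of the skeletal muscle markers 8 of 12 fell. The part of these markers in the result was not tested. This comparison shares its knockout libraries with the one above, so the pair are not independent.

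Imiquimod was then set against DMSO in Cre-negative skin, to describe how the members respond when Nedd8 is intact. Of 37 members 10 rose and 0 fell, where 8.15% of all genes rose and 10.1% fell (edgeR, adjusted p under 0.05). They were the S-phase genes Rrm2, Tk1 and Tyms and the mitotic genes Cdc20, Birc5, Aurka, Ube2c, Ccnb1, Ccna2 and Plk1. All 37 fold changes were positive, with medians of 0.80 for S-phase and 1.22 for mitotic members, beside -0.06 for all genes. Libraries of 30 members were higher without overlap, as were 24.8% of all genes.

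The regulator of anaphase, Cdc20, had 40.0 and 52.2 CPM with imiquimod and 7.66, 8.54 and 5.9 CPM with DMSO, a log2 fold change of 2.64 ± 0.45 (SE; edgeR adjusted p = 0.0017). Rrm2 had 45.3 and 42.5 CPM with imiquimod and 5.48, 8.81 and 10.3 CPM with DMSO, a log2 fold change of 2.42 ± 0.47 (SE; edgeR adjusted p = 0.0037). Tk1 had 11.2 and 16.2 CPM with imiquimod and 3.08, 4.38 and 3.35 CPM with DMSO, a log2 fold change of 1.93 ± 0.37 (SE; edgeR adjusted p = 0.0034). For these genes both imiquimod libraries lay above all DMSO libraries, and the calls remained whichever library was left out. The other 7 calls were lost in at least 1 such fit, and the count was 3 without Cre-negative imiquimod replicate 2, without DMSO replicate 1 or without DMSO replicate 2, and 6 without DMSO replicate 3. Without the pair of libraries highest in Rn18s-rs5 it was also 3. Cdk1 had 40.7 and 78 CPM with imiquimod and 8.55, 16.9 and 22.7 CPM with DMSO, again without overlap, and a log2 fold change of 1.89 ± 0.99 (SE; edgeR adjusted p = 0.2) that did not pass. Mki67 (0.24 ± 0.48) and Cenpf (0.00 ± 0.49) had the smallest fold changes of the mitotic members, and Mcm6 (0.21 ± 0.77) and Chek1 (0.35 ± 0.38) of the S-phase members.

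Among the other genes, 11 of 55 replication genes and 10 of 65 mitosis genes rose with imiquimod in Cre-negative skin and 0 fell, with medians of 0.77 and 0.98. Mcm10 (2.06 ± 0.43), Dbf4 (1.62 ± 0.34), Orc1 (1.87 ± 0.44), Prim1 (1.35 ± 0.31), Tacc3 (1.93 ± 0.37) and Trip13 (1.62 ± 0.33) were among them (log2 fold change ± SE). Ccne1 had 2.81 ± 0.41 (SE; edgeR adjusted p = 0.00064) and Mybl2 2.02 ± 0.63 (SE; edgeR adjusted p = 0.042), whereas Wee1, the kinase that holds Cdk1 inactive, had -2.06 ± 0.34 (SE; edgeR adjusted p = 0.0013). The 12 skeletal muscle markers all fell, to a sum of 1221 and 2388 CPM with imiquimod, against 9689 to 26010 CPM with DMSO, with none at 0. Of 11 neutrophil markers 7 rose. The 10 besides S100a8 and S100a9 summed to 97.8 and 62.9 CPM with imiquimod, with Camp and Elane at 0 in both libraries, against 14.7 to 27.6 CPM with DMSO. With that pair the sums were 86010 and 192900 CPM with imiquimod, against 77.3 to 709 CPM with DMSO. Both imiquimod libraries were male and 1 of 3 DMSO libraries was female. A fit with a sex term in effect sets the imiquimod libraries against DMSO replicates 1 and 2, the male ones. With sex as a term 6 calls remained, and the medians were 0.94 for S-phase and 1.47 for mitotic members. The part of these markers in the result was not tested.

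In wild type skin imiquimod raised 5 of 37 members and lowered 0, where 9.59% of all genes rose and 11.8% fell (edgeR, adjusted p under 0.05), a share of members close to the background. They were the helicase subunits Mcm3 (1.30 ± 0.39) and Mcm5 (1.87 ± 0.46) and the mitotic genes Birc5 (2.47 ± 0.66), Cdc20 (2.44 ± 0.52) and Plk1 (1.54 ± 0.50), as log2 fold changes ± SE. Cdc20 had 39.3 and 67 CPM with imiquimod and 4.21 and 15.2 CPM with DMSO (edgeR adjusted p = 0.0061). Mcm5 had 129.9 and 63.1 CPM with imiquimod and 16.8 and 35.7 CPM with DMSO (edgeR adjusted p = 0.013). Groups did not overlap for either gene. Cdk1 had 5.13 and 56.5 CPM with imiquimod and 5.52 and 41.8 CPM with DMSO, 1 low and 1 high library in each group. The medians were 0.55 for S-phase and 0.58 for mitotic members, beside -0.09 for all genes, and 30 of 37 fold changes were positive. Scaled by library size alone the medians changed sign, to -0.13 and -0.04, while that of all genes was -0.76. Cdc20 was the call that remained whichever library was left out. The count was 1 without wild type imiquimod replicate 1 and 1 without wild type DMSO replicate 1. Hair markers summed to 962 and 47.7 CPM with imiquimod and to 120.9 and 7029 CPM with DMSO. Of the neutrophil markers 7 of 11 rose, and the 10 besides S100a8 and S100a9 summed to 78.4 and 120.9 CPM with imiquimod and to 14.3 and 16.3 CPM with DMSO. Of the skeletal muscle markers 8 of 12 fell, with sums of 5647 and 2053 CPM with imiquimod and 14290 and 11070 CPM with DMSO. Of the fibroblast markers 5 of 10 fell, with sums of 299 and 523 CPM with imiquimod and 1080.0 and 2082 CPM with DMSO. The part of these markers in the result was not tested.

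In knockout skin the fold changes went the other way. All 37 were negative for imiquimod against DMSO. Of the members 5 fell and 0 rose, where 2.52% of all genes fell and 8.56% rose (edgeR, adjusted p under 0.05). These were Mcm7, Chek1, Nusap1, Prc1 and Top2a. The medians were -0.79 for S-phase and -0.88 for mitotic members, beside -0.04 for all genes. Libraries of 17 members were lower without overlap, as were 18.9% of all genes.

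Mcm7 (GRCm39 chr5:138162845-138170684) had 18.5 and 23.3 CPM in knockout skin with imiquimod and 62.1, 59.1 and 49.4 CPM with DMSO, a log2 fold change of -1.44 ± 0.32 (SE; edgeR adjusted p = 0.011). Nusap1, a protein that bundles spindle microtubules, had 12.1 and 20.3 CPM with imiquimod and 64.2, 40.5 and 52.3 CPM with DMSO, a log2 fold change of -1.69 ± 0.39 (SE; edgeR adjusted p = 0.013). Both imiquimod libraries lay below all DMSO libraries for each gene. Prc1, which bundles microtubules of the central spindle, had -1.55 ± 0.45 (SE; edgeR adjusted p = 0.041), Top2a -1.31 ± 0.38 (SE; edgeR adjusted p = 0.043) and Chek1 -1.36 ± 0.40 (SE; edgeR adjusted p = 0.043). Rrm2 had 36.1 and 105 CPM with imiquimod and 45.3, 102 and 102 CPM with DMSO, with overlap and a log2 fold change of -0.24 ± 0.47 (SE; edgeR adjusted p = 0.79). Cdk1 overlapped too, with 12.3 and 67.7 CPM with imiquimod and 17.6, 84.6 and 96.4 CPM with DMSO.

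None of the 5 calls in knockout skin remained in every fit that left out 1 library. The count was 0 without knockout imiquimod replicate 1, the lower of its pair for 36 of the 37 members, and 2 without knockout DMSO replicate 2 or 3. The imiquimod libraries were male and the DMSO libraries female, so sex and treatment cannot be told apart within this genotype. Macrophage and monocyte markers, of which 10 of 12 rose, summed to 3527 and 1729 CPM with imiquimod, against 270 to 686 CPM with DMSO, with none at 0. Of the neutrophil markers 8 of 11 rose, and the 10 besides S100a8 and S100a9 summed to 5465 and 2117 CPM with imiquimod, against 131.1 to 214.5 CPM with DMSO. Keratinocyte markers, of which 1 of 12 fell and 0 rose, summed to 7107 and 12020 CPM with imiquimod, against 17850 to 23350 CPM with DMSO, with none at 0. The part of these markers in the result was not tested. Of the other genes, Lig1 (-1.75 ± 0.38) and Pola1 (-1.31 ± 0.39) were the replication genes that fell, of 55. Cenpm (-2.77 ± 0.50) and Ndc80 (-1.72 ± 0.44) were the mitosis genes that fell, of 65 (log2 fold change ± SE), and none of either list rose.

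**Figure D3:**
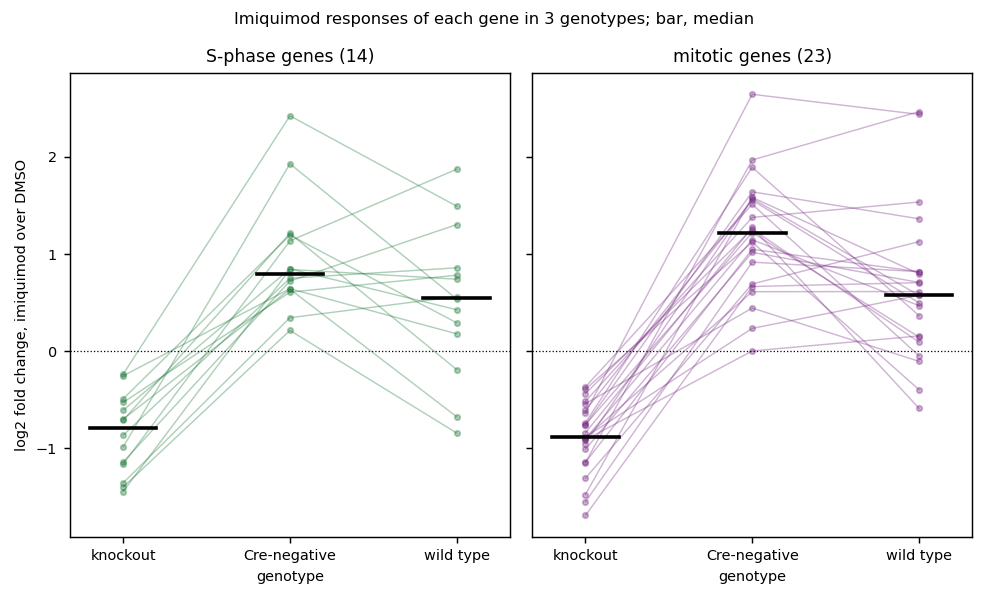
Log2 fold change of imiquimod over DMSO for each S-phase gene (left) and mitotic gene (right) in knockout, Cre-negative and wild type skin, with lines joining the same gene and bars at the median. All 37 values are below 0 in knockout skin (medians -0.79 and -0.88) and all are above 0 in Cre-negative skin (medians 0.80 and 1.22).

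The difference between the response of knockout and that of Cre-negative skin was tested directly, as an interaction of genotype and treatment. Of 37 members 22 had a lower response in knockout skin and 0 a higher one, where 9.63% of all genes had a lower one and 14% a higher one (edgeR, adjusted p under 0.05). They were 9 of 14 S-phase and 13 of 23 mitotic genes. All 37 differences were negative, with medians of -1.69 for S-phase and -2.05 for mitotic members, beside 0.11 for all genes. This contrast uses the same 10 libraries as the comparisons above, and the Cre-negative DMSO group enters several of them, so their values are given side by side and not as support for each other.

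Cdc20 had the largest difference in response, -3.28 ± 0.65 (SE; edgeR adjusted p = 0.0045). Its imiquimod response was -0.64 ± 0.45 in knockout and 2.64 ± 0.45 in Cre-negative skin (log2 fold change ± SE). For Ube2c the difference was -3.06 ± 0.63 (SE; edgeR adjusted p = 0.0054), from responses of -1.48 ± 0.46 in knockout and 1.58 ± 0.43 in Cre-negative skin. For Tk1 it was -2.91 ± 0.54 (SE; edgeR adjusted p = 0.0032), from responses of -0.99 ± 0.38 and 1.93 ± 0.37 in knockout and Cre-negative skin. Each of the 3 genes was higher in knockout than in Cre-negative skin with DMSO, and in Cre-negative skin it was higher with imiquimod than with DMSO. Mcm7 had a difference of -2.29 ± 0.44 (SE; edgeR adjusted p = 0.0038), with 20.9 ± 3.4 and 56.9 ± 6.65 CPM in knockout skin and 52.6 ± 11.1 and 29.3 ± 6.23 CPM in Cre-negative skin, imiquimod before DMSO in each (SD, n = 2 and 3). These 4 calls were the ones that remained whichever library was left out. The count was 4 without knockout imiquimod replicate 1, 12 without knockout DMSO replicate 3, Cre-negative DMSO replicate 1 or Cre-negative DMSO replicate 2, and 14 without Cre-negative imiquimod replicate 2.

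The other S-phase members called were Mcm3, Mcm5, Rrm1, Rrm2, Tyms, Gins2 and Chek1, with differences of -2.66 for Rrm2 to -1.62 for Rrm1. The other mitotic members called were Top2a, Aurka, Plk1, Ccna2, Ccnb1, Ccnb2, Kif11, Tpx2, Nusap1, Prc1 and Birc5, with differences of -3.11 for Birc5 to -1.89 for Plk1. Cdk1 (-2.63 ± 1.43) had a large difference and a wide error and did not pass, nor did Mki67 (-1.12 ± 0.68) or Pcna (-0.90 ± 0.37). A sex term rests here too on the Cre-negative DMSO libraries alone, the only group that held both sexes. With sex as a term 4 of the 22 calls remained, and the medians were -1.60 for S-phase and -1.76 for mitotic members. Macrophage and monocyte markers had a higher response in knockout skin for 6 of 12 genes, with sums of 3527 and 1729 CPM in knockout imiquimod, 270 to 686 CPM in knockout DMSO, 408 and 1044 CPM in Cre-negative imiquimod and 597 to 990 CPM in Cre-negative DMSO skin. Skeletal muscle markers had a higher response in knockout skin for 8 of 12 genes, with sums of 5091 and 1752 CPM in knockout imiquimod and 1221 and 2388 CPM in Cre-negative imiquimod skin. With DMSO their sums were 2123 to 3849 CPM in knockout and 9689 to 26010 CPM in Cre-negative skin. Of 12 keratinocyte markers 2 had a higher and 4 a lower response in knockout skin. Of 11 neutrophil markers tested 3 had a higher and 2 a lower one, and of 9 T cell markers tested 1 and 1. Of 10 fibroblast markers 4 had a higher response and 0 a lower one. The part of these lists in the result was not tested. Ccne1 had a lower response in knockout skin (-3.66 ± 0.59 (SE; edgeR adjusted p = 0.0017)), as did Mybl2 (-3.43 ± 0.90 (SE; edgeR adjusted p = 0.016)). Of the other genes, 17 of 55 replication and 23 of 65 mitosis genes had a lower response and 0 a higher one.

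**Figure D4:**
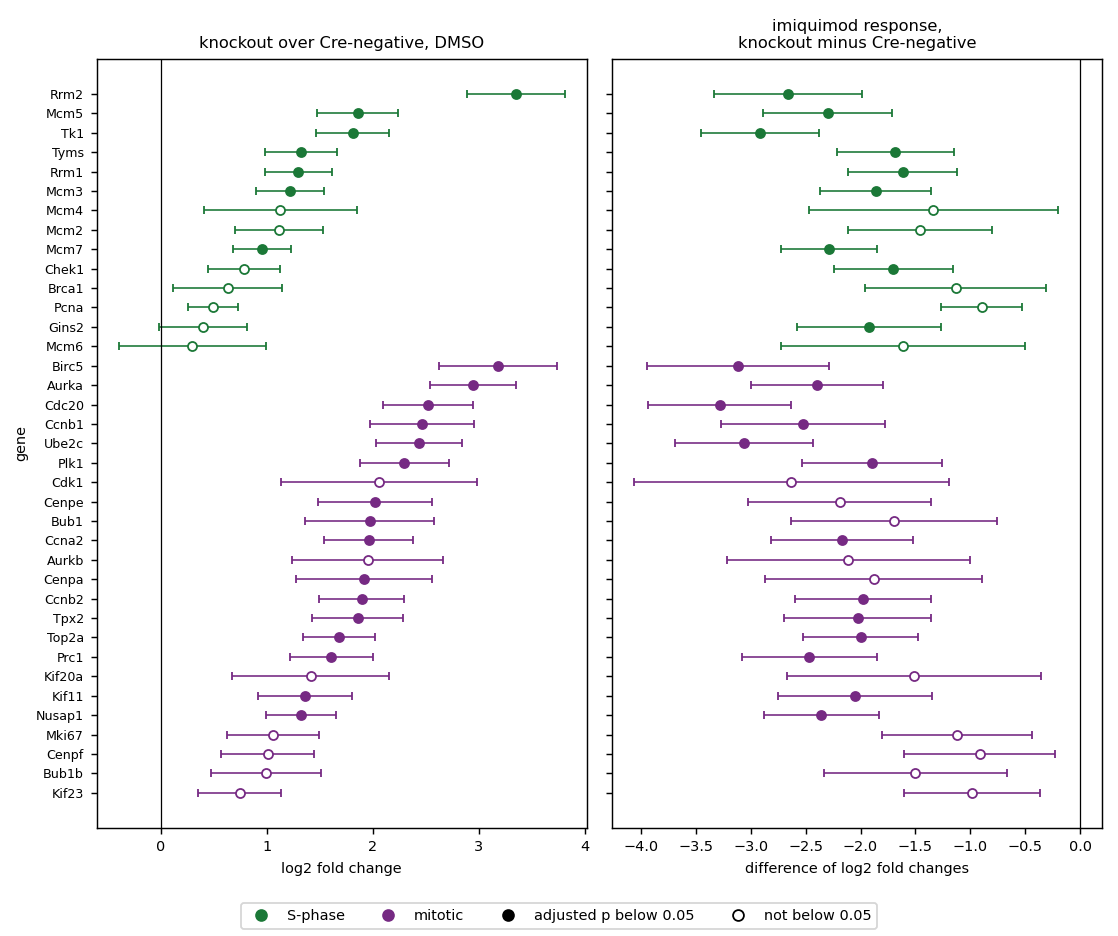
Log2 fold change of knockout over Cre-negative libraries, both DMSO (left) and the imiquimod response in knockout skin minus that in Cre-negative skin (right) for each of the 37 genes, with bars of 1 SE and filled points where the adjusted p is below 0.05. All points lie right of 0 on the left and left of 0 on the right, with 23 and 22 filled.

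With imiquimod in both genotypes, knockout skin was set against Cre-negative skin. Of 37 members 1 fell in knockout skin, Mcm7, and 0 rose, where 6.33% of all genes fell and 11.6% rose (edgeR, adjusted p under 0.05), so both shares are below the background. It had 18.5 and 23.3 CPM in knockout and 60.4 and 44.7 CPM in Cre-negative skin, without overlap, and a log2 fold change of -1.33 ± 0.34 (SE; edgeR adjusted p = 0.017). The call was lost without knockout imiquimod replicate 1 and without Cre-negative imiquimod replicate 1. At an unadjusted p under 0.05 there were 5 members (13.5%), against 31.1% of all genes. Gins2 had 6.32 and 11.8 CPM in knockout and 17.4 and 34.5 CPM in Cre-negative skin, a log2 fold change of -1.53 ± 0.51 (SE; edgeR adjusted p = 0.056). Rrm2 (0.69 ± 0.51), Aurka (0.55 ± 0.46) and Plk1 (0.40 ± 0.49) had positive fold changes that did not pass. The medians were -0.47 for S-phase and -0.17 for mitotic members, beside 0.02 for all genes, and all 4 libraries were male. Of the macrophage and monocyte markers 6 of 12 rose, and of the neutrophil markers 8 of 11. Of the keratinocyte markers 4 of 12 fell and 1 rose, with sums of 7107 and 12020 CPM in knockout and 23540 and 15630 CPM in Cre-negative skin, which did not overlap. The part of these markers in the result was not tested. Among the other genes Prim1 (-1.67 ± 0.36), Rfc3 (-1.29 ± 0.35) and Rfc4 (-2.03 ± 0.58), which prime DNA and load its clamp, fell. Of the mitosis genes Psrc1 (-3.84 ± 0.57) and Cenpm (-2.09 ± 0.52) fell and Lmnb1 (1.87 ± 0.43) rose.

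Knockout skin without imiquimod was set beside wild type skin with it, to see how far apart their levels lay. By edgeR 0 of 37 members passed, where 5.17% of all genes did in either direction, with 7 members (18.9%) and 19.5% of all genes at an unadjusted p under 0.05, and 1 member called by DESeq2. Rrm2 had 45.3, 102 and 102 CPM in knockout DMSO and 32.2 and 38.2 CPM in wild type imiquimod skin, a log2 fold change of 1.24 ± 0.49 (SE; edgeR adjusted p = 0.17). Cdc20 had 34.6, 44 and 48.2 CPM in knockout DMSO and 39.3 and 67 CPM in wild type imiquimod skin, with overlap and a log2 fold change of -0.33 ± 0.44 (SE; edgeR adjusted p = 0.75). The medians were 0.41 for S-phase and 0.41 for mitotic members, and with standard errors of this size a miss of the threshold does not show that the groups were alike. Cre-negative DMSO skin was set against wild type DMSO skin to compare the controls. By edgeR 0 members and 0 of all genes passed (0%), with 0 members and 1120 genes at an unadjusted p under 0.05, and 0 members by DESeq2. Of the 37 fold changes 34 were negative, among them all 23 mitotic ones. The medians were -0.24 and -0.49 for S-phase and mitotic members. Without wild type DMSO replicate 2 both medians moved above 0, to 0.26 and 0.20, and 27 fold changes changed sign.

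S-phase and mitotic members were compared by the difference of their class medians. Between knockout and Cre-negative DMSO skin the S-phase median was 0.80 below the mitotic median on the log2 scale, and it was below it in all 15 fits tried. It was also below it for imiquimod against DMSO in Cre-negative skin (0.80 against 1.22) and for knockout against wild type skin with DMSO (0.94 against 1.31), in all 14 fits each. These comparisons share Cre-negative or knockout DMSO libraries. Between Cre-negative and wild type DMSO skin it was above it, by 0.24 and in all 14 fits, and in the difference between responses by 0.36 and in all 19 fits. In the main fit both medians were below 0 in these contrasts, so the mitotic median was again the one further from 0. They were -0.24 for S-phase and -0.49 for mitotic members between the controls, and -1.69 and -2.05 for the difference between responses. For imiquimod in wild type skin the difference was -0.03, below 0 in 11 of 13 fits, and for knockout against Cre-negative skin with imiquimod -0.30, below 0 in 12 of 13. Library by library, the S-phase minus mitotic difference of the centred medians was -0.22, -0.47 and -0.52 in knockout DMSO skin and 0.48, 0.29 and 0.27 in Cre-negative DMSO skin, which did not overlap. It was 0.03 and -0.70 in knockout imiquimod skin, 0.30 and 0.06 in Cre-negative imiquimod skin, -0.09 and -0.18 in wild type imiquimod skin and 0.11 and -0.13 in wild type DMSO skin. For imiquimod against DMSO in knockout skin the medians were -0.79 for S-phase and -0.88 for mitotic members, and the sign of their difference varied between fits.

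**Figure D5:**
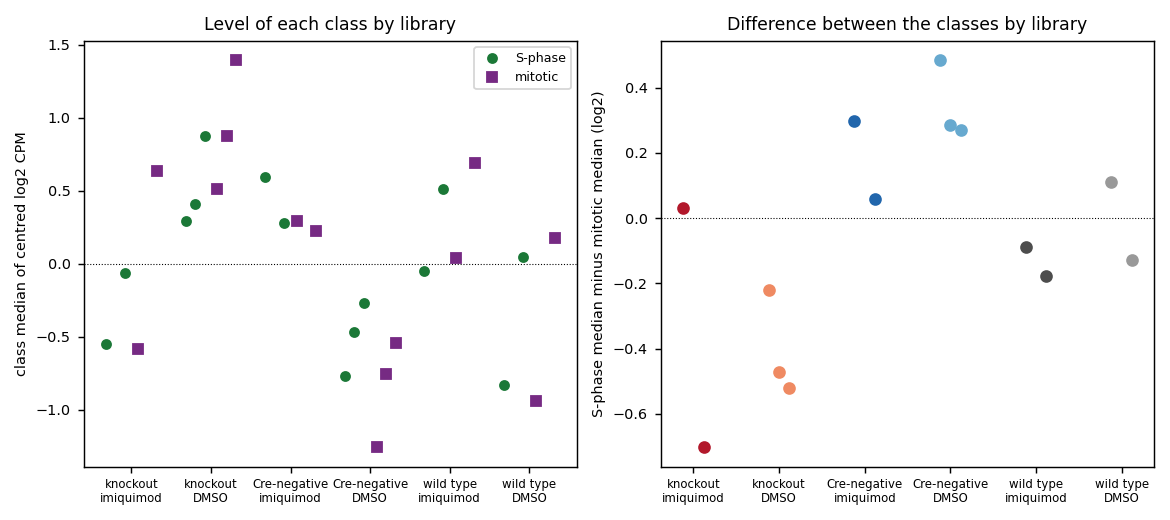
Median over members of log2 CPM centred on each gene's mean, by library and class (left), and the S-phase median minus the mitotic median in each library (right). The 3 knockout DMSO libraries lie at -0.22 to -0.52 on the right and the 3 Cre-negative DMSO libraries at 0.27 to 0.48.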

How the data were processed

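The 14 skin libraries were made with the QuantSeq forward kit, whose reads start near the 3′ end of polyadenylated transcripts. The authors deposited raw read counts per gene for 56953 genes. STAR, featureCounts and DESeq2 are named in the submitters' processing notes, with GRCm38 and GRCm39 as builds, and positions in the count table fit GRCm39. How strand and multiply mapping reads were treated is not given in the sources used here. Therefore overlapping genes, antisense partners and near-identical copies cannot be told apart. The gene length column of the table, per the file headers of featureCounts the summed exon length (another unit), was not used for levels.

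Genotype, treatment and replicate number came from the labels. With edgeR 4.0.16 (R 4.3.3), filterByExpr left 16027 genes, TMM scaled the 14 libraries, and a single quasi-likelihood fit held 6 group means. From it came 9 contrasts, with Benjamini-Hochberg adjustment over all genes tested and a threshold of 0.05. The standard error is the fold change divided by the square root of F. Levels are CPM with TMM scaling, and centred values are log2 CPM with a prior count of 2. Depth was 5552954 to 34362477 counts per library. No molecular identifiers were counted, so reads are not independent molecules.

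Alternatives were DESeq2 1.42.0 as tool and as scaling, library size alone, no filter, limma 3.58.1 voom with quality weights, and only the groups compared. Others were a replicate block, a sex term, omission of the pair of libraries highest in Rn18s-rs5, and omission of each library. A single library was omitted only for the comparisons that use its group. The labels do not say that equal replicate numbers pair libraries. Only Cre-negative DMSO skin held both sexes, so the sex term rests on the libraries of that group. Where omission left 1 library in a group, it was assumed to vary like the other groups. Promoter windows are those of RefSeq on GRCm38.p6, matched by symbol. The members and gene lists were chosen with earlier results of these data known. Named genes were any member, up to 4 genes with the smallest p-values of each other list in a comparison, and E2f1, Foxm1, Mybl2, Cdt1, Ccne1, Ccnd1 and Cdkn1a.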

Additional observations from a re-analysis of the deposited data

Results flagged for a closer look

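The imiquimod response of 22 members differed between knockout and Cre-negative skin by the test of that difference (edgeR, adjusted p under 0.05), always with the lower response in knockout skin. The differences, knockout minus Cre-negative on the log2 scale, were -1.86 for Mcm3, -2.30 for Mcm5, -2.29 for Mcm7, -1.62 for Rrm1, -2.66 for Rrm2, -1.68 for Tyms, -2.91 for Tk1, -1.92 for Gins2 and -1.70 for Chek1 among the S-phase genes. Among the mitotic genes they were -2.00 for Top2a, -2.40 for Aurka, -1.89 for Plk1, -2.16 for Ccna2, -2.52 for Ccnb1, -1.98 for Ccnb2, -3.28 for Cdc20, -2.05 for Kif11, -2.03 for Tpx2, -2.36 for Nusap1, -2.47 for Prc1, -3.11 for Birc5 and -3.06 for Ube2c. Those of Mcm7, Tk1, Cdc20 and Ube2c remained called whichever library was left out, and 4 of the 22 calls remained without knockout imiquimod replicate 1. No group had 4 or more libraries, so single libraries were not screened.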

How the results depend on the processing

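No result changed its direction past the threshold in any fit tried. Members called in knockout against Cre-negative DMSO skin (23) were 12 with library size alone and 3 with a sex term, and 17 to 27 when 1 library was left out. All 23 passed with voom, where 11 more members were called, and with no filter, where 7 more were. With imiquimod in both (1) they were 0 with library size alone, voom or only the groups compared, 3 with no filter, 2 with DESeq2, and 0 to 1 with 1 library left out. For imiquimod in Cre-negative skin (10) they were 3 with library size alone, 16 with only the groups compared, 6 with a sex term, 3 without the pair of libraries highest in Rn18s-rs5, and 3 to 8 with 1 library left out. In knockout skin (5) they were 0 with library size alone, only the groups compared or a sex term, and 0 to 6 with 1 library left out. In wild type skin (5) they were 2 with library size alone, 8 with DESeq2, 0 with only the groups compared, and 1 to 5 with 1 library left out. The difference between responses (22) gave 4 with library size alone, 4 with a sex term, and 4 to 22 with 1 library left out. Knockout against wild type DMSO skin (13) gave 3 with library size alone, 21 with voom, and 2 to 16 with 1 library left out. Knockout DMSO against wild type imiquimod skin (0) gave 3 with no filter and 1 with DESeq2, and the controls gave 0 in all fits. Library size alone moved the median of all genes to -0.41 in the first of these comparisons, -0.63 for imiquimod in Cre-negative skin and 0.84 for the difference between responses, so changes there are relative to another baseline. The cause of the other shifts was not tested.

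Between knockout and Cre-negative DMSO skin the deviations of the 3 same-numbered pairs of libraries correlated at 0.26, 0.10 and 0.17. Pairs of other numbers in these groups correlated at -0.27 to 0.10. The ranges meet and the labels state no pairing, so whether a replicate block is a paired fit there is not known. Over all groups the correlations cannot settle whether the numbers pair libraries. In a group of 2 libraries the deviations mirror each other, so pairs of other numbers are no independent comparison. Deviations of same-numbered libraries from their group means correlated at -0.32 to 0.49 over 31 pairs (median 0.06, 11 over 0.1), against a median of -0.01 over 50 pairs of other numbers. With a replicate block the members called were 27 in knockout against Cre-negative DMSO skin, 2 with imiquimod in both, 16 for imiquimod in Cre-negative skin, where Tyms and Birc5 were lost, 3 in knockout skin, where Chek1, Top2a and Prc1 were lost, 25 for the difference between responses and 1 for knockout DMSO against wild type imiquimod skin.

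Groups held 2 or 3 libraries, and the sex of libraries moved with some groups. The labels leave the site of skin and the induction of the other genotypes unstated, which limits every comparison with the knockout. A count near 0 in a group of 2 libraries says little at this depth.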

Other observations

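Replicate 1 was lower than the mean of the other libraries of its group in all 6 groups for 10 of the 37 members, Gins2, Cdk1, Ccna2, Ccnb1, Ccnb2, Cenpa, Kif11, Kif20a, Kif23 and Ube2c, of which 9 are mitotic, and for 4.62% of all genes tested. It was lower in 5 groups for 18 more members, and for 13% of all genes tested. These genes were chosen after their values were seen. The Cdk1 levels were 12.3 CPM in replicate 1 and 67.7 CPM in replicate 2 of the knockout imiquimod group, and 17.6 CPM in replicate 1, 84.6 CPM in replicate 2 and 96.4 CPM in replicate 3 of the knockout DMSO group. In Cre-negative skin Cdk1 had 40.7 and 78.0 CPM with imiquimod and 8.55, 16.9 and 22.7 CPM with DMSO, and in wild type skin 5.13 and 56.5 CPM with imiquimod and 5.52 and 41.8 CPM with DMSO, replicate 1 before the others in each. What the replicate numbers stand for is not given in the labels.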
